A study of Mus musculus with 4 samples.

Results

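Genes that dividing cells use in S phase and mitosis were examined in the prostate of vasectomized and sham-operated mice. The list held 40 genes, from the helicase that opens DNA for copying to the motors of the mitotic spindle, and the rule names each gene. The genes were chosen with earlier results of these data known, and measured levels entered in the choice of probe set. For each gene the brightest probe set with exactly 1 gene symbol was taken, which gave 38 genes out of 22180 measured in all. The remaining members could not be given a value. Ccnb1, which encodes cyclin B1, had no probe set with 1 symbol, and Ccne2, which encodes cyclin E2, was found only in a probe set shared with Ints8. Further probe sets that Top2a shares with Taf1d, Mcm7 with Mir25 and Mir93, Tyms with Tyms-ps and Nusap1 with Oip5 were not used.

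The 2 groups were male C57BL/6 mice after vasectomy, which interrupts the vas deferens, and male C57BL/6 mice after sham surgery, with 2 mice per group and 1 array of total prostate RNA per mouse. C57BL/6 is an inbred laboratory strain, and the labels name no transgene in either group. By the sample labels the mice were operated on when 16 weeks old and the tissue was taken when they were 24 weeks old, from the lateral prostate, whereas the methods give a younger age at surgery and the dorsolateral lobe, and 1 label field counts 24 weeks from surgery. Each value is a log2 probe set level after the authors' normalization, so that a difference of 1 is a doubling, and each difference is the mean of the vasectomized mice minus the mean of the sham-operated mice. Probes differ in how brightly they bind, so levels were compared between arrays and not between genes.

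A cell that is about to divide first licenses its replication origins by loading the MCM helicase, then copies its DNA in S phase, and finally separates the copies on the mitotic spindle. Many of the S phase genes are switched on by E2F transcription factors, whereas many of the mitotic genes carry a short element named the cell cycle genes homology region (CHR) together with CCAAT boxes, which bind the factor NF-Y, and reach their peak later in the cycle. In the adult prostate few epithelial cells divide while androgen levels are steady, so whole-tissue levels of these genes are usually low.

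The promoters of the list were searched for the letters of these elements. RefSeq windows running from 250 bases before to 50 bases after the gene start (build GRCm38.p6) were found for 32 of the 40 genes, as 34 windows, since Mcm7 and Prc1 have more than 1. Both strands were searched for the E2F letters TTTCCCGC, TTTGGCGC, TTTCGCGC and TTTGCCGC, for the CHR letters TTTGAA and TTCGAA, and for CCAAT. The 6 stretches printed here belong to genes whose levels are described later, namely the brightest genes of the role groups with an E2F or CHR match before the start and then the next brightest. Each is written 5′ to 3′ along the gene, with matches in capitals (a match on the opposite strand appears as its reverse complement, such as ATTGG for CCAAT), and all 6 genes lie on the minus strand.
Mki67, chr7:135716460-135716579: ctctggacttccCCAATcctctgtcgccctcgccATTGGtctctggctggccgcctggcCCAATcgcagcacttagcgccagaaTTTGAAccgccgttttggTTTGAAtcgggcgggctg
Cdc20, chr4:118437344-118437408: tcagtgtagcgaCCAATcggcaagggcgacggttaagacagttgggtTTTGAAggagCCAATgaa
Mcm2, chr6:88898833-88898967: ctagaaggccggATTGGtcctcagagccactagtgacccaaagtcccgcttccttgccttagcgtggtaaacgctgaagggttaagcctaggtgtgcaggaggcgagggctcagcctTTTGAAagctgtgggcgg
Cdk2, chr10:128705080-128705203: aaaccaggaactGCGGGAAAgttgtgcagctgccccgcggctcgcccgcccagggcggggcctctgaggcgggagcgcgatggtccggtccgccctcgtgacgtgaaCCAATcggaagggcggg
Mcm7, chr5:138171893-138172068: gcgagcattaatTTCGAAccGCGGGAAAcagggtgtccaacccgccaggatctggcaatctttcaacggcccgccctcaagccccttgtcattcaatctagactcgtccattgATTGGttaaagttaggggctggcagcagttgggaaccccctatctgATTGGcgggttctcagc
Mcm6, chr1:128359706-128359827: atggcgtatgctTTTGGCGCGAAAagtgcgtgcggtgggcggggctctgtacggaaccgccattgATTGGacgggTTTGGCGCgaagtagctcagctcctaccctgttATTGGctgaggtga
The Mki67 stretch held 2 CHR matches, starting 116 and 98 bases before the gene start, downstream of 3 CCAAT boxes. In Cdc20 the CHR match began 18 bases before the start, between 2 CCAAT boxes at 53 and 8 bases. By contrast, the Mcm6 stretch held 3 E2F matches at 110, 106 and 47 bases, of which the first and second overlap, and no CHR match. Cdk2 held 1 E2F match at 140 bases and 1 CCAAT box at 45 bases, and Mcm7 held both an E2F match at 165 bases and a CHR match at 173 bases. Mcm2 was the replication gene with a CHR match, at 70 bases, and no E2F match.

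Over the whole list, E2F letters were present in 8 of 34 windows (23.5%), against 2.26% of all 32851 RefSeq windows of the same length. CHR letters were present in 17 windows (50%), against 19.2% of all windows, and CCAAT boxes in 26 windows (76.5%), against 37.4%. Among the 16 windows of mitotic kinases and spindle genes, 0 held E2F letters and 13 held CHR letters (81.2%). Among the 13 windows of replication genes, nucleotide synthesis genes and transcription factors, 6 held E2F letters (46.2%) and 2 held CHR letters (15.4%). Different motifs overlapped once in the members' windows. When the 50 bases after the start were left out, the CHR count was 10 windows in place of 17, so part of these matches lay downstream of the annotated start. Among the 16 mitotic and spindle windows it was 6 (37.5%) in place of 13, against 17.1% of all windows. A match is a stretch of letters and not a measured binding site.

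**Figure D1:**
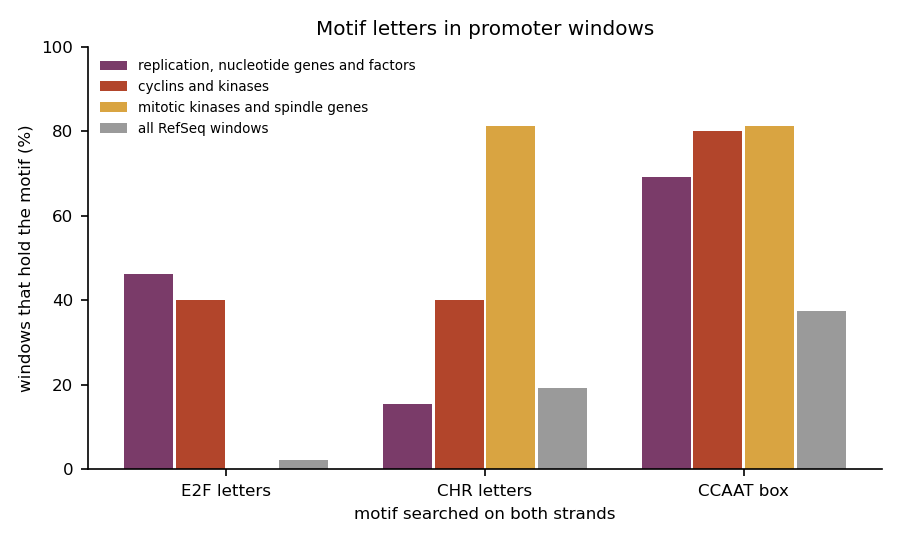
Share of RefSeq promoter windows (y axis, percent) that hold E2F letters, CHR letters or a CCAAT box on either strand (x axis), for 13 windows of replication, nucleotide and transcription factor genes, 5 of cyclins and kinases, 16 of mitotic kinases and spindle genes, and all 32851 windows. CHR letters were found in 81.2% of the mitotic and spindle windows and in 19.2% of all windows, and E2F letters in 0 of those 16 windows.

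Across the whole array, limma with Benjamini-Hochberg adjustment called 0 of 22180 genes at an adjusted p under 0.05, while 237 genes lower (1.07%) and 216 genes higher (0.974%) in vasectomized mice passed an unadjusted 0.05. The methods' t-test called 0 genes after adjustment and 750 of 22168 (3.38%) before it. The arrays correlated with each other at 0.970 to 0.989 over all genes, the lower values being those of vasectomy 2. Background was approximated by the level that 95% of 1394 olfactory or vomeronasal receptor genes did not exceed, since such receptors are mostly silent outside sensory tissue. This stand-in was 4.62, and 28 of the 38 proliferation genes had a mean above it. Luminal prostate markers summed to 32300 and 17300 linear units in vasectomy 1 and vasectomy 2, against 30900 and 31400 in sham 1 and sham 2, and 10 of 11 had a mean above the background stand-in. In vasectomy 2, however, the secretory genes Sbp and Spink5 were at 3.37 and 4.96, against 12.37 to 12.55 for Sbp and 11.45 to 12.06 for Spink5 in the other 3 arrays, so Sbp was under the stand-in there, while Pbsn and Tgm4 were at 12.49 and 13.01 in that array. Seminal vesicle markers summed to 2700 and 25500 in the vasectomy arrays, against 15900 and 2870 in the sham arrays. The sum was thus highest in vasectomy 2 and next in sham 1. In sham 1 it came mostly from Svs2, Svs4 and Svs5, at 12.49, 10.63 and 13.06, and the other measured markers were at or below 4.94 there. Svs2, Svs4 and Svs5 were the brightest of these markers in each of the other arrays too. The median of these markers was 3.92 and 8.66 in the vasectomy arrays, against 4.4 and 4.03 in the sham arrays.

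Most of the proliferation genes had a slightly lower mean in vasectomized mice, but none passed the test. Of 38 genes, 31 had a lower mean (81.6%), 6 had a higher mean and 1 was equal, whereas 49.8% of all genes had a lower mean. The differences were small, with a median of -0.12 over the list against 0.00 over all genes, and they ranged from -0.595 for Ccna2 to 0.58 for Foxm1. Both vasectomy arrays lay below both sham arrays for 11 genes (28.9%), against 12% of all genes, and above both for 3 genes (7.89%), against 12.5% of all genes. After adjustment in limma every member had a p of 1.0, while 3 members passed an unadjusted 0.05 (Ccna2 and Kif11 lower, Foxm1 higher). Over all genes, 1.07% passed lower and 0.974% higher. The median 95% interval of the members reached 0.452 to either side of a difference. An exact permutation test of 2 arrays against 2 cannot give a two-sided p below 0.333. In whole tissue, fewer dividing cells and less RNA per dividing cell cannot be told apart.

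**Figure D2:**
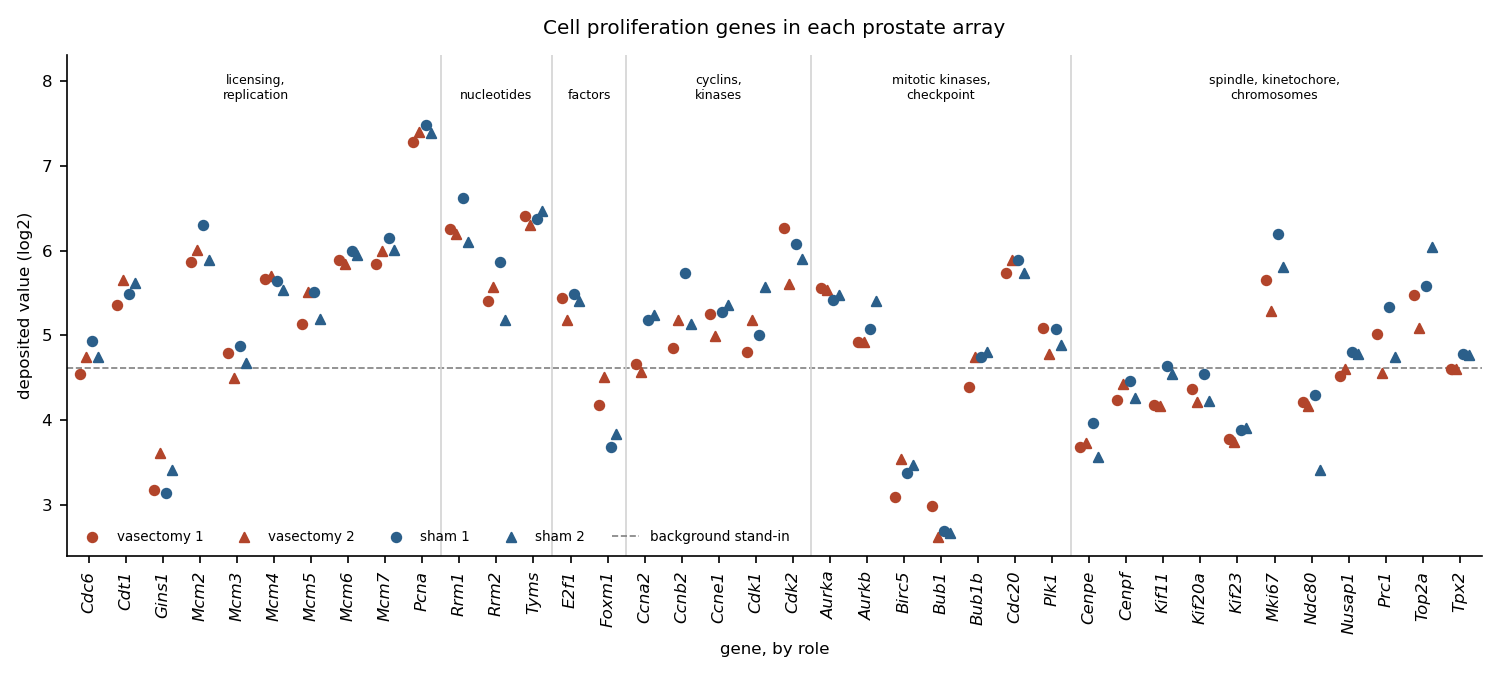
Deposited log2 value (y axis) of the 38 measured proliferation genes, ordered by role (x axis), in vasectomy 1 and 2 (red) and sham 1 and 2 (blue), with circles for mice numbered 1 and triangles for mice numbered 2. The dashed line is the background stand-in of 4.62, above which the mean of 28 genes lies. The mean of the red symbols is below that of the blue ones for 31 genes, and both red symbols are below both blue ones for 11.

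The size of the shift depended on sham 1. The members' median level was 4.97 and 4.96 in the vasectomy arrays, against 5.23 and 5.18 in the sham arrays. Set against each gene's own mean over the 4 arrays, the median deviation was -0.0837 and -0.0613 in the vasectomy arrays, against 0.1125 and -0.0025 in the sham arrays. By this measure only sham 1 stood clearly above the others, whereas by the median level both sham arrays lay above both vasectomy arrays. Sham 1 was the highest array for 19 of 38 genes (50%), against 22.4% of all genes, and sham 2 for 8 (21.1%), against 24.4% of all genes. The mice carry the numbers 1 and 2 in each group, and the study's methods speak of pairs of mice, but neither they nor the labels say what the mice of a pair share. Between the mice numbered 1, the vasectomized mouse was lower for 30 genes (78.9%; all genes, 48.7%), and between those numbered 2 for 21 genes (55.3%; all genes, 51%). Without sham 1 the count of genes with a lower mean was 22 of 38 and the median was -0.062, whereas without vasectomy 1, vasectomy 2 or sham 2 the counts were 27, 30 and 32 and the medians -0.112, -0.115 and -0.165. Sham 1 was also the sham array with the higher seminal vesicle sum, which, as in the other arrays, came mostly from Svs2, Svs4 and Svs5. The part of that tissue in the values was not tested.

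**Figure D3:**
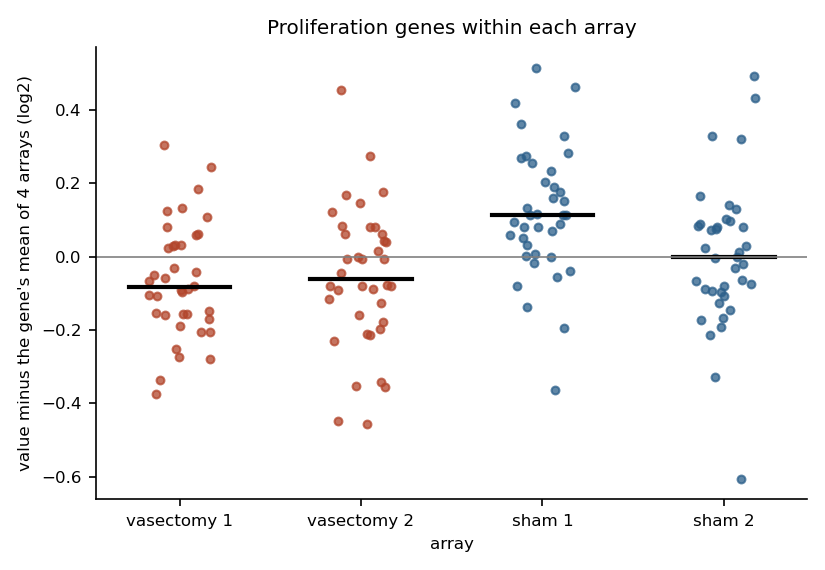
Value of each of the 38 proliferation genes minus that gene's mean over the 4 arrays (y axis, log2), by array (x axis), with a bar at the median. The median is -0.0837 in vasectomy 1 and -0.0613 in vasectomy 2, and it is 0.1125 for sham 1 and -0.0025 for sham 2.

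Genes of replication licensing and the replication fork had a lower mean in 8 of 10 cases, with a median difference of -0.10, and all differences lay between -0.19 and 0.12. Of the 10, 6 encode the subunits of the MCM helicase, which unwinds DNA ahead of the polymerases. Mcm6 was at 5.89 and 5.84 in vasectomized mice, against 6.00 and 5.95 in sham-operated mice, and Mcm7 at 5.84 and 5.99, against 6.15 and 6.01. Both vasectomy arrays were thus below both sham arrays for these subunits, with differences of -0.11 (SE 0.154) for Mcm6 and -0.165 (SE 0.164) for Mcm7. Mcm4 went the other way, at 5.67 and 5.70 in vasectomized mice, against 5.64 and 5.54 in sham-operated mice, a difference of 0.095 (SE 0.156). The groups overlapped for the other subunits. Mcm2 was at 5.87 and 6.01 in vasectomized mice, against 6.30 and 5.89 in sham-operated mice, with a difference of -0.155 that was 0.05 without sham 1. Mcm3 differed by -0.13 and Mcm5 by -0.03.

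Pcna, the sliding clamp that holds the polymerase on DNA, was at 7.28 and 7.40 in vasectomized mice, against 7.48 and 7.38 in sham-operated mice, with a difference of -0.09 (SE 0.159) and overlapping groups. Cdc6, which loads the helicase onto origins, was at 4.55 and 4.74 in vasectomized mice, against 4.93 and 4.74 in sham-operated mice, the second mouse of each group being equal. Its partner Cdt1 was at 5.36 and 5.65 in vasectomized mice, against 5.49 and 5.62 in sham-operated mice. Neither loader separated the groups. Gins1, a subunit of the complex that activates the helicase, was below the background stand-in in every array, at 3.18 and 3.61 in vasectomized mice, against 3.14 and 3.41 in sham-operated mice.

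The 3 genes of nucleotide synthesis, which supply the building blocks for DNA, each had a lower mean in vasectomized mice and overlapping groups, with differences between -0.135 and -0.035. Rrm1, the large subunit of ribonucleotide reductase, was at 6.25 and 6.20 in vasectomized mice, against 6.62 and 6.10 in sham-operated mice. Rrm2, its S phase-regulated small subunit, was at 5.41 and 5.57 in vasectomized mice, against 5.87 and 5.18 in sham-operated mice. For both subunits sham 1 was the highest array and sham 2 the lowest, so the sham mice bracketed the vasectomized mice. Tyms, which makes thymidylate, was at 6.41 and 6.30 in vasectomized mice, against 6.37 and 6.47 in sham-operated mice.

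The 2 transcription factors pointed in opposite directions. E2f1, an activator of S phase genes, was at 5.44 and 5.18 in vasectomized mice, against 5.49 and 5.40 in sham-operated mice, with a difference of -0.135 (SE 0.173). Foxm1, which activates mitotic genes, was at 4.18 and 4.51 in vasectomized mice, against 3.69 and 3.84 in sham-operated mice, and its difference of 0.58 (SE 0.186, 95% interval 0.12 to 1.04) was the highest of the list. Its unadjusted p was 0.0213 in limma (adjusted p = 1.0) and 0.0853 in the methods' t-test. All 4 values of Foxm1 lay below the background stand-in.

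Cyclins and their kinases drive the steps of the cycle, and each of the 5 measured had a lower mean in vasectomized mice, with a median difference of -0.295. Ccna2, whose cyclin A2 acts in S phase and G2, had the largest negative difference of the list, at 4.66 and 4.57 in vasectomized mice, against 5.18 and 5.24 in sham-operated mice. The gap between the groups was wide beside the spread within them, and the difference was -0.595 (SE 0.156, 95% interval -0.98 to -0.21), a level 1.51 times higher in sham-operated mice. Its unadjusted p was 0.00927 in limma and 0.00816 in the methods' t-test, and its adjusted p was 1.0 in limma. With each array left out in turn the Ccna2 difference stayed between -0.64 and -0.55. The vasectomy values lay close to the background stand-in of 4.62.

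Ccne1, which encodes cyclin E1 and acts at the entry into S phase, was at 5.25 and 4.99 in vasectomized mice, against 5.28 and 5.36 in sham-operated mice, with a difference of -0.20 (SE 0.172) and no overlap, which was -0.07 without vasectomy 2 and -0.33 without vasectomy 1. Ccnb2, a mitotic B-type cyclin, was at 4.85 and 5.18 in vasectomized mice, against 5.74 and 5.13 in sham-operated mice. Sham 1 alone was high here, and the difference of -0.42 (SE 0.254) was -0.115 without sham 1, -0.255 without vasectomy 1 and -0.725 without sham 2. Cdk1, the kinase that cyclins A and B activate for mitosis, was at 4.80 and 5.18 in vasectomized mice, against 5.0 and 5.57 in sham-operated mice, lower in each numbered pair but overlapping between groups. Its difference of -0.295 was -0.01 without sham 2, -0.105 without vasectomy 1 and -0.58 without sham 1. Cdk2, the partner of cyclins E and A, was at 6.27 and 5.61 in vasectomized mice, against 6.08 and 5.90 in sham-operated mice, and the vasectomized mice bracketed the sham-operated ones.

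Among the mitotic kinases and the genes of the spindle checkpoint and mitotic exit, 4 of 7 had a lower mean, 2 a higher mean and 1 was equal, with a median difference of -0.045. The 2 Aurora kinases pointed in opposite directions. Aurkb, the kinase of the chromosomal passenger complex, was at 4.92 and 4.92 in vasectomized mice, against 5.08 and 5.40 in sham-operated mice, with a difference of -0.32 (SE 0.179) that was -0.16 without sham 2. Aurka, which acts at the spindle poles, was at 5.56 and 5.54 in vasectomized mice, against 5.42 and 5.48 in sham-operated mice, with a difference of 0.10 (SE 0.154). Neither pair of groups overlapped, and neither difference exceeded 2 SE.

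Birc5, or survivin, which belongs to the same complex as Aurkb, was at 3.10 and 3.54 in vasectomized mice, against 3.38 and 3.47 in sham-operated mice, under the background stand-in throughout. Cdc20, which activates the ligase that ends mitosis and whose promoter is printed above, was at 5.73 and 5.89 in vasectomized mice, against 5.89 and 5.73 in sham-operated mice, a difference of 0.00 with a 95% interval of -0.41 to 0.41. Plk1, a kinase of mitotic entry and spindle assembly, was at 5.09 and 4.78 in vasectomized mice, against 5.07 and 4.89 in sham-operated mice. These genes, unlike Aurkb, had fully mixed values. The checkpoint kinase Bub1b was at 4.39 and 4.75 in vasectomized mice, against 4.74 and 4.80 in sham-operated mice, while Bub1 was at or below 2.99 in all arrays, far under the background stand-in.

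Genes of the spindle, the kinetochore and the chromosomes were the largest role group, and 10 of 11 had a lower mean, with a median difference of -0.17. Both vasectomy arrays lay below both sham arrays for 6 of the 11 (54.5%), against 12% of all genes, and the highest array was sham 1 for 9 of them and sham 2 for the other 2. Mki67 encodes Ki-67, a protein that coats mitotic chromosomes and serves pathologists as a marker of dividing cells. It was at 5.65 and 5.29 in vasectomized mice, against 6.20 and 5.81 in sham-operated mice. The vasectomized mouse was lower by about the same amount in each numbered pair, and the difference was -0.535 (SE 0.218, 95% interval -1.07 to 0.00), 1.45 times higher in sham-operated mice, with an unadjusted p of 0.0505 in limma (adjusted p = 1.0). Without sham 1 the Mki67 difference was -0.34, and without vasectomy 2 it was -0.355. Top2a, the topoisomerase that untangles replicated DNA, was at 5.48 and 5.09 in vasectomized mice, against 5.58 and 6.04 in sham-operated mice. Here sham 2 was the high array, the difference was -0.525 (SE 0.233), and without sham 2 it was -0.295 and without vasectomy 2 it was -0.33.

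Some other members of this group had smaller differences and tighter replicates. Kif11, the motor that pushes the spindle poles apart, was at 4.18 and 4.17 in vasectomized mice, against 4.64 and 4.55 in sham-operated mice. Its groups were well separated, with a difference of -0.42 (SE 0.155, 95% interval -0.80 to -0.04) and an unadjusted p of 0.0361 in limma (adjusted p = 1.0), although its mean lay under the background stand-in. Tpx2, which activates Aurora A on the spindle, was at 4.6 and 4.61 in vasectomized mice, against 4.78 and 4.77 in sham-operated mice. Nusap1, which bundles spindle microtubules, was at 4.52 and 4.6 in vasectomized mice, against 4.81 and 4.78 in sham-operated mice. Kif23, a motor of the central spindle, was at 3.78 and 3.75 in vasectomized mice, against 3.88 and 3.91 in sham-operated mice, all under the background stand-in. In these cases the mice of a group were nearly equal and the gap between groups was small, with differences of -0.17, -0.235 and -0.13. The methods' t-test, which uses each gene's own spread, gave unadjusted p of 0.00173 for Tpx2, 0.0256 for Kif23 and 0.0315 for Nusap1, whereas limma, which moderates the spread, gave 0.309, 0.429 and 0.181 in the same order.

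The groups overlapped for the rest. Prc1, which cross-links the central spindle, was at 5.02 and 4.56 in vasectomized mice, against 5.33 and 4.74 in sham-operated mice, with both mice numbered 1 above both mice numbered 2. Kif20a and the kinetochore genes Cenpe and Cenpf differed by -0.095, -0.065 and -0.025 and lay under the background stand-in. Ndc80, of the complex that grips microtubules, was at 4.21 and 4.17 in vasectomized mice, against 4.30 and 3.42 in sham-operated mice. Sham 2 alone was low, and the difference of 0.33 was -0.11 without that array.

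**Figure D4:**
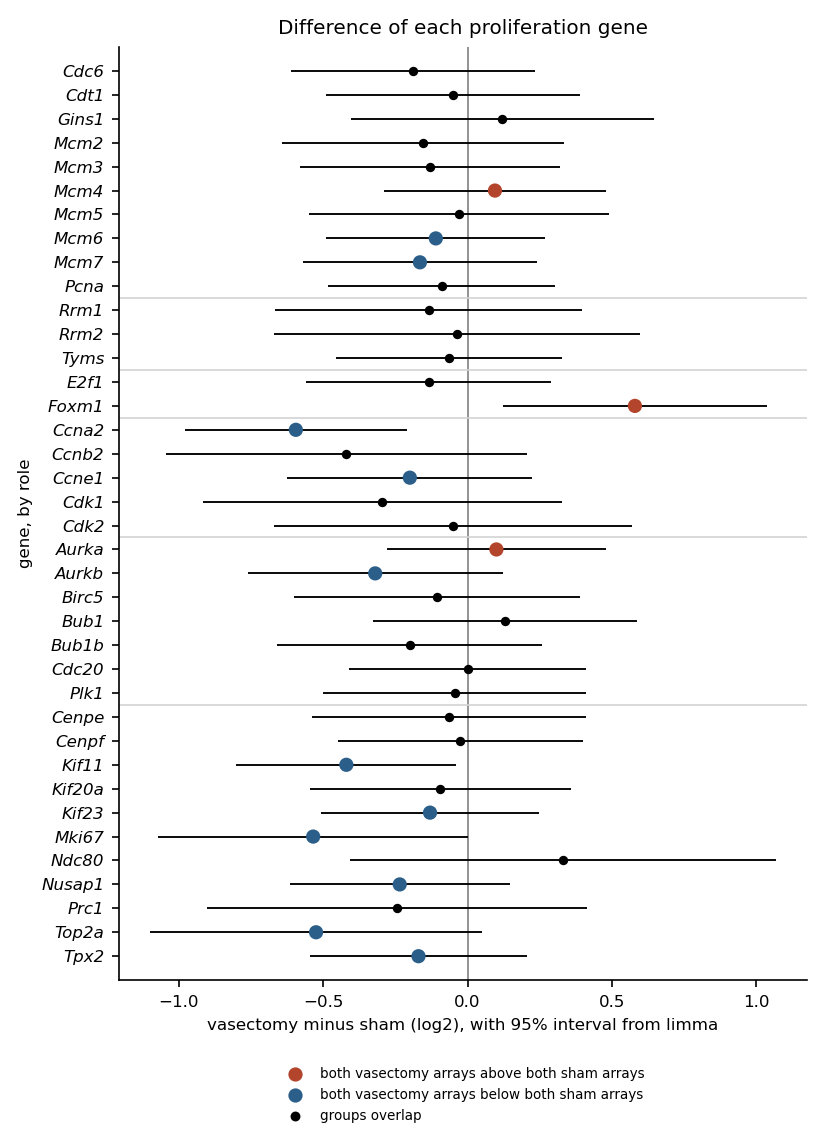
Difference of each proliferation gene, vasectomy minus sham (x axis, log2), with its 95% interval from limma, by role from licensing genes at the top to spindle genes at the bottom (y axis). Blue points mark the 11 genes whose vasectomy arrays both lie below both sham arrays, red points the 3 genes above, and most intervals span 0.

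Of 8 members with E2F letters, 8 had a lower mean with a median of -0.12, and of 23 members without them 19 had a lower mean with a median of -0.13. Members with CHR letters were lower in 12 of 16 cases (median -0.16), and those without in 15 of 15 (median -0.105). For CCAAT boxes, the counts were 20 of 23 (median -0.13) with and 7 of 8 (median -0.12) without. These are descriptions of 31 measured genes with a window, and no test was made of them.

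Wider lists of cell cycle genes also held more genes with a lower than with a higher mean. Of 84 other mitosis genes, 57 had a lower mean (67.9%), 25 a higher mean and 2 were equal, with a median difference of -0.0925, and both vasectomy arrays lay below both sham arrays for 22 (26.2%), against 12% of all genes. Among them Ncaph, a condensin subunit, had the largest negative difference, at 6.31 and 4.88 in vasectomized mice, against 7.11 and 5.79 in sham-operated mice. It was lower in each numbered pair but spread widely within both groups (difference -0.855, SE 0.59), and the difference was -0.14 without vasectomy 2, -0.195 without sham 1 and -1.57 without vasectomy 1. Nek2, a centrosome kinase, was at 3.5 and 3.7 in vasectomized mice, against 4.42 and 4.04 in sham-operated mice (difference -0.63, unadjusted p of 0.0196 in limma, adjusted p = 1.0), and was the 1 gene of this list past an unadjusted 0.05. Over all genes, 1.07% passed lower and 0.974% higher in limma. With the mouse number as a replicate block 4 genes of this list passed, among them Ncaph and Ckap2, but all genes were not counted with the block. In the methods' t-test 3 of the 84 passed, close to the 3.38% of all genes. Ckap2, a spindle protein, differed by -0.485. On the other side were Aspm, a spindle pole protein, at 4.10 and 4.08 in vasectomized mice, against 3.78 and 3.79 in sham-operated mice, and Smc4, a condensin core subunit, and Cdc25b, the phosphatase that activates Cdk1, with 0.27 each. The means of Nek2, Ckap2, Aspm and Cdc25b did not lie above the background stand-in. The 3 brightest genes, Bub3, Ckap5 and Ube2s, differed by 0.07, -0.03 and 0.05.

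Of 56 other S phase genes, 33 had a lower mean (58.9%), 22 a higher mean and 1 was equal, with a median difference of -0.03. Both vasectomy arrays lay below both sham arrays for 12 (21.4%; all genes, 12%) and above both for 2 (3.57%; all genes, 12.5%), and 0 passed an unadjusted 0.05 in limma. Chek1, the kinase of the replication checkpoint, was at 4.80 and 4.96 in vasectomized mice, against 5.13 and 5.53 in sham-operated mice. Exo1, an exonuclease of DNA repair, was at 4.97 and 5.06 in vasectomized mice, against 5.24 and 5.64 in sham-operated mice. Sham 2 was the highest array for both, with differences of -0.45 and -0.425, and Cdc7, the kinase that fires origins, differed by -0.47 with overlapping groups, by -0.09 without vasectomy 2 and by -0.85 without vasectomy 1. Without sham 2 the differences were -0.25 for Chek1 and -0.225 for Exo1. Gins3 (0.26), the clamp loader subunit Rfc2 (0.23) and Gmnn (0.195), whose product geminin blocks Cdt1, had the largest positive differences. The 3 brightest, Rpa1 and Rpa3 of the single-strand binding complex and Gins4, differed by -0.24, 0.035 and 0.00.

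Replication-dependent histone genes, most of whose messages are made in S phase to package new DNA, are a further group. They were listed by name, and which of them are made in S phase was not checked. Of 28 measured, 16 had a lower mean (57.1%) and 12 a higher mean (median difference -0.0175), and both vasectomy arrays lay below both sham arrays for 4 (14.3%), close to the 12% of all genes, and above both for 2 (7.14%), against 12.5% of all genes. H4c14 was at 6.16 and 6.09 in vasectomized mice, against 5.9 and 5.6 in sham-operated mice, a difference of 0.375. H4c17 and H2bc1 differed by 0.475 and 0.445, and H1f5, H2bc12 and H2bc9 by -0.505, -0.445 and -0.415, each with a mean under the background stand-in. The 3 brightest, H4c12, H2ac10 and H1f2, differed by 0.07, -0.18 and 0.13. Near-identical histone copies can share probes, so single histone values are uncertain.

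**Figure D5:**
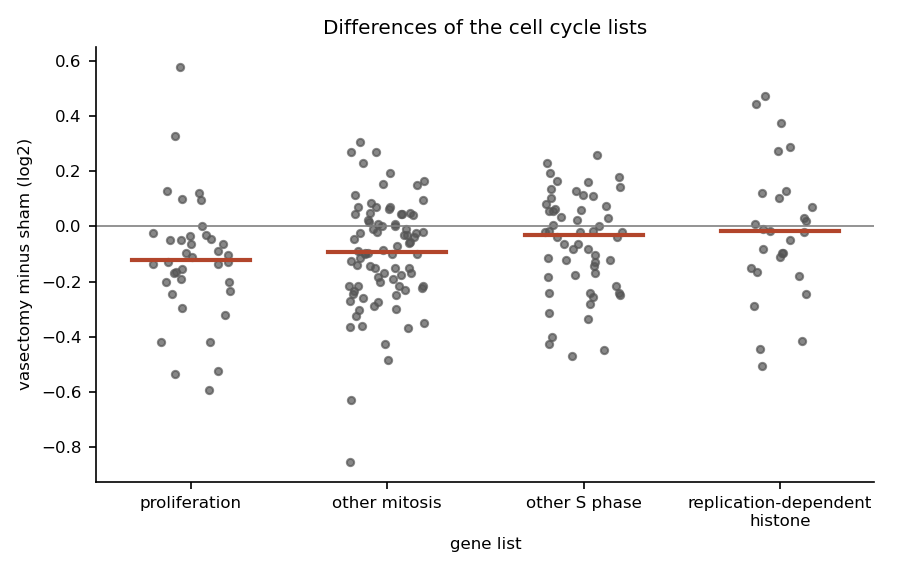
Difference of each gene, vasectomy minus sham (y axis, log2), for 38 proliferation, 84 other mitosis, 56 other S phase and 28 replication-dependent histone genes (x axis), with a bar at the median. The medians are -0.12, -0.0925, -0.03 and -0.0175 in that order.

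Of the marker lists of other cell types, the T cell list was the one whose summed level was lower in both vasectomy arrays than in both sham arrays. Summed linear levels of the proliferation genes were 1460 and 1460 in the vasectomy arrays, against 1680 and 1540 in the sham arrays. T cell markers summed to 103 and 118 in the vasectomy arrays, against 123 and 123 in the sham arrays, and 5 of 6 had a lower mean, but of the 6 only Cd8a was above background, and Cd3e, Cd3d and Cd3g were not. Luminal markers had a lower mean in 8 of 11 cases, and vasectomy 2 was the lowest array for 7 of the 11. Macrophage markers (571 and 1220 in the vasectomy arrays, against 512 and 686 in the sham arrays), smooth muscle markers (12900 and 15900, against 11800 and 10500) and fibroblast markers (2960 and 3910, against 2530 and 2860) had a higher mean in vasectomized mice for 8 of 8, 8 of 8 and 7 of 7 genes. Basal cell markers summed to 245 and 283 in the vasectomy arrays, against 228 and 364 in the sham arrays, and were lowest in sham 1, where the proliferation genes were highest. The part of a different cell mixture in the proliferation values was not tested.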

How the data were processed

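Prostate RNA of 2 vasectomized and 2 sham-operated mice was measured on Affymetrix whole-transcript arrays. The methods name a human array version, whereas the annotation lists mouse genes. The deposited log2 values were made by the authors with RMA in Affymetrix Expression Console 1.3.1, as the submitters' processing notes state. RMA corrects for background, makes the distributions of the arrays alike and combines the probes of a set. No source gives the base of the logarithm, and log2 was assumed (range 0.91 to 13.87, array medians 4.80 to 4.82). Normalization of this kind would hide a shift common to most genes. Of 41345 probe sets, 23521 had 1 symbol, and the brightest per symbol gave 22180 genes.

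Differences were tested with limma 3.58.1 (R 4.3.3; lmFit, eBayes, two-sided) with Benjamini-Hochberg adjustment over all genes and a threshold of 0.05. The steps were tested on simulated data. The methods' t-test, Student's, left out 12 genes without spread. Nothing in the sources says what mice of 1 number share, so no block was used. The members and lists were chosen with earlier results of these data known. All measured members were named, and of each wider list the 3 brightest and the 3 largest differences in each direction. Histone genes were matched through RefSeq synonyms, since the annotation uses newer symbols. Summed levels are sums of linear values. The settings varied were the use of the mouse number as a block, the centring and normalization of the arrays, the minimum level, the use of averaged probe sets, limma's trend and array weights, the test itself and the arrays included. The number of arrays limits the precision.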

Additional observations from a re-analysis of the deposited data

How the results depend on the processing

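In every alternative run, 0 genes were called at an adjusted p under 0.05, over all genes and within each list. With 2 mice per group, a list summary can turn on 1 array. Leaving out each array gave between 14 (without sham 1) and 24 (without sham 2) proliferation genes with non-overlapping groups in the lower direction. The count was 11 with all arrays, but a group of 1 overlaps less often, so the counts cannot be compared with 11. No share of all genes was set beside the counts of this step, so they do not show a shift of these genes. The same step moved the median of the other mitosis genes between -0.137 and -0.06, of the other S phase genes between -0.092 and -0.025 and of the histone genes between -0.117 and 0.02.

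Filters on dim genes left fewer genes to count. Above the background stand-in, 25 of 28 proliferation genes had a lower mean (all 13556 genes above it, 47.1%), 9 had non-overlapping groups in that direction (all, 8.96%) and 1 passed an unadjusted 0.05. Of 36 other mitosis genes above it, 24 had a lower mean (median -0.05), and 6 (16.7%) had non-overlapping groups in that direction. Of 12 histone genes above it, 6 had a lower mean. Above the median level of all genes, 15 of 18 proliferation genes had a lower mean, 5 had non-overlapping groups in that direction and 0 passed an unadjusted 0.05, while 47% of all 11089 genes above that level had a lower mean and 8.32% had groups apart in that direction, and 13 of 25 other S phase, 13 of 19 other mitosis and 4 of 8 histone genes had a lower mean. The methods' t-test put 5 of 38 proliferation genes at an unadjusted p under 0.05, against 3.38% of all genes.

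Mice that carried the same number in the 2 groups deviated from their group means with a correlation of 0.191 over genes, and no source says what they share. With the number as a replicate block, 4 proliferation genes passed an unadjusted 0.05, Mki67 being the addition at 0.0158, and 0 of 22180 genes were called. The block put 4 other mitosis genes past an unadjusted 0.05 in place of 1 (Ncaph 0.00376, Ckap2 0.0215 and Nek2 0.0388 among them), and 1 other S phase and 1 histone gene in place of 0. The share of all genes past an unadjusted 0.05 was not counted with the block. These counts therefore do not show a change particular to these lists. The methods' t-test put 3 of 84 other mitosis genes there, close to the 3.38% of all genes that it put there.

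With the probe sets of a gene averaged, Rpa1 differed by 0.053 and Rpa3 by -0.007, the opposite of their signs for the brightest probe set. Leaving out arrays turned the sign of a number of differences, the largest being 0.33 for Ndc80. The ranges were -0.22 to 0.16 for Mcm5, -0.36 to 0.05 for Mcm2, -0.275 to 0.015 for Mcm3, -0.195 to 0.095 for Cdt1, -0.095 to 0.335 for Gins1, -0.395 to 0.125 for Rrm1, -0.38 to 0.31 for Rrm2 and -0.38 to 0.28 for Cdk2. For mitotic genes they were -0.05 to 0.31 for Bub1, -0.2 to 0.11 for Plk1, -0.325 to 0.115 for Birc5, -0.25 to 0.06 for Kif20a, -0.265 to 0.135 for Cenpe, -0.125 to 0.075 for Cenpf, -0.11 to 0.77 for Ndc80 and -0.54 to 0.05 for Prc1. In the wider lists they were -0.68 to 0.2 for Rpa1, -0.17 to 0.24 for Rpa3, -0.15 to 0.67 for Gins3, -0.01 to 0.4 for Gmnn, -0.085 to 0.225 for Bub3, -0.095 to 0.035 for Ckap5, -0.04 to 0.14 for Ube2s, -0.19 to 0.73 for Cdc25b, -0.04 to 0.18 for H4c12 and -0.215 to 0.475 for H1f2. Without a turn of sign, but with a move of over 1.5 times, the ranges were -0.15 to -0.03 for Pcna, 0.045 to 0.145 for Mcm4, -0.24 to -0.09 for Mcm7, -0.285 to -0.095 for Cdc6, -0.12 to -0.01 for Tyms, -0.265 to -0.005 for E2f1, -0.38 to -0.02 for Bub1b, -0.65 to -0.32 for Ckap2, 0.08 to 0.46 for Smc4, 0.025 to 0.435 for Rfc2, -0.335 to -0.025 for H2ac10, -0.925 to -0.085 for H1f5, -0.8 to -0.09 for H2bc12, 0.01 to 0.94 for H4c17, 0.245 to 0.645 for H2bc1 and 0.225 to 0.525 for H4c14. The causes were not tested.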

Other observations

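A second probe set of Rrm2 was at 2.44 and 2.32 in vasectomized mice, against 2.64 and 2.23 in sham-operated mice, all under the background stand-in. The order of arrays was the same as in the brighter probe set for the sham group and the reverse for the vasectomy group. Endothelial markers summed to 403 and 370 linear units in the vasectomy arrays, against 362 and 289 in the sham arrays, adipocyte markers to 151 and 450, against 130 and 124, B and plasma cell markers to 123 and 222, against 123 and 174, and male germ cell markers to 124 and 133, against 113 and 121.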
